A study of Mus musculus with 4 samples.

Results

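The comparison described here sets the marrow of mice given electro-acupuncture beside the marrow of mice given cisplatin. Its members are 2 of the 4 arrays of the series, and the quantity is the electro-acupuncture value minus the cisplatin value of each gene on the log2 scale. A gene was compared where its array cluster (the array's unit for a transcript) carried 1 gene symbol and its mean over the 4 arrays reached the floor of 5.235, the median of all clusters. This kept 17196 of 30702 named genes, of which 11226 are protein-coding. Bcam and Tnip2 lay next to the floor, with rounded means of 5.235 each, the first inside it and the second outside. Their differences were 0.24 and -0.15.

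The study measured total RNA of mouse bone marrow on 1 Affymetrix array for each of 4 groups: control, cisplatin, astragalus (the root of Astragalus membranaceus, used in Chinese medicine) and electro-acupuncture, which a second label field of the same sample calls acupuncture. Tibias were taken at 2 weeks, the marrow was spun out of the bone and frozen, and 6 marrow samples were mixed before extraction, read here as 6 per group. The labels name a single agent per group and do not say whether the electro-acupuncture mice also received cisplatin. Strain, sex, age, doses and acupuncture points are not named in the sources used here. Each group is thus 1 pooled sample on 1 array, and no difference below has a replicate check, a test or a p-value. A gene is counted at a log2 difference of at least 1, which is 2-fold, and "higher" and "lower" refer to the electro-acupuncture array against the cisplatin array.

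Cisplatin forms crosslinks in DNA, and dividing blood progenitors in the marrow are sensitive to it. Electro-acupuncture passes a weak current through needles placed in the skin. The marrow spun from a tibia holds blood-forming cells, macrophages, fat cells, vessel cells and the stroma that feeds blood progenitors, and some bone-lining osteoblasts can come with it. Defining genes of blood-forming marrow were far above the floor on the cisplatin and electro-acupuncture arrays, with Mpo of granulocyte precursors at 12.80 and 13.25 and Alas2 of red cell precursors at 14.99 and 15.00. In bulk RNA of this kind, fewer cells of a type and less RNA per cell cannot be told apart.

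Among protein-coding genes on the lists, the largest differences were on the lower side and lay in a few genes of bone matrix, fat, eosinophils and the immediate early response. Bglap2 (osteocalcin) was 11.8-fold, Fos 6.59-fold, Prg2 6.11-fold, Scd1 3.76-fold and Col1a1 (type I collagen) 3.73-fold lower. Apol11b and ND2, on no list, were 4.59-fold and 4.23-fold lower, and some ribosomal, small nuclear and transfer RNA genes differed by more than Fos. On the higher side the named protein-coding genes past 2-fold included subunits of the proteasome and of the respiratory chain, the complement inhibitor Serping1 and Dntt. Among protein-coding genes 35 of 11226 were at least 2-fold higher (0.312%) and 35 at least 2-fold lower (0.312%). By any amount 52.2% of them were higher and 45.3% lower, the shares to set beside the list counts below. Among all genes 673 of 17196 were past 2-fold (3.91%), 228 higher (1.33%) and 445 lower (2.59%), and most of these carry no protein code. The median absolute difference of a protein-coding gene was 0.15, the 99th percentile was 0.88, and the median signed difference was 0.02.

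**Figure D1:**
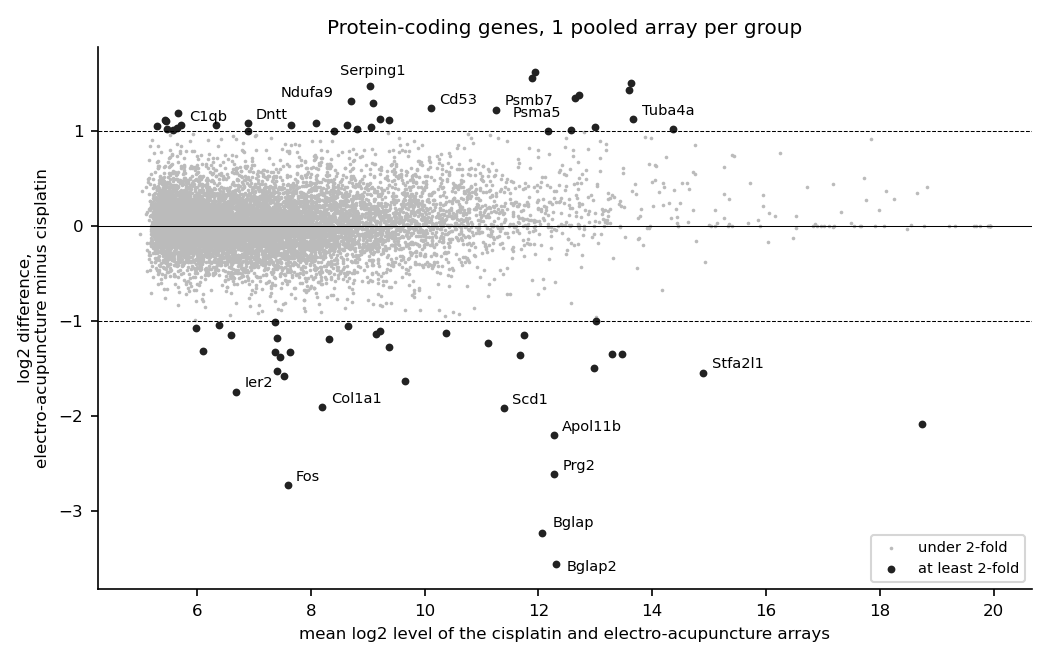
Each point is 1 of 11226 protein-coding genes, with the mean log2 level of the cisplatin and electro-acupuncture arrays on the x axis and their log2 difference on the y axis; dashed lines mark 2-fold. The lower side reaches -3.56 (Bglap2), the higher side 1.63, and 35 genes lie past each line.

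The array on which a counted gene stood off differed between the directions. Of the 35 protein-coding genes that were higher, 17 had electro-acupuncture as the highest of the 4 arrays without cisplatin being the lowest, 4 had only cisplatin as the lowest, 11 had both and 3 had neither. Of the 35 that were lower, 14 had only cisplatin as the highest of the 4, 3 had only electro-acupuncture as the lowest, 15 had both and 3 had neither. Over all protein-coding genes the cisplatin value was the highest of the 4 in 17.1% and the lowest in 22.0%. The electro-acupuncture value was the highest in 20.1% and the lowest in 24.6%. The counted genes were chosen by a large difference between these arrays, which itself favours an extreme place for either or both. Their larger counts are thus not a separate result beside these shares. The control value lay nearer the electro-acupuncture than the cisplatin value in 22 of the 35 lower genes and in 6 of the 35 higher genes.

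**Figure D2:**
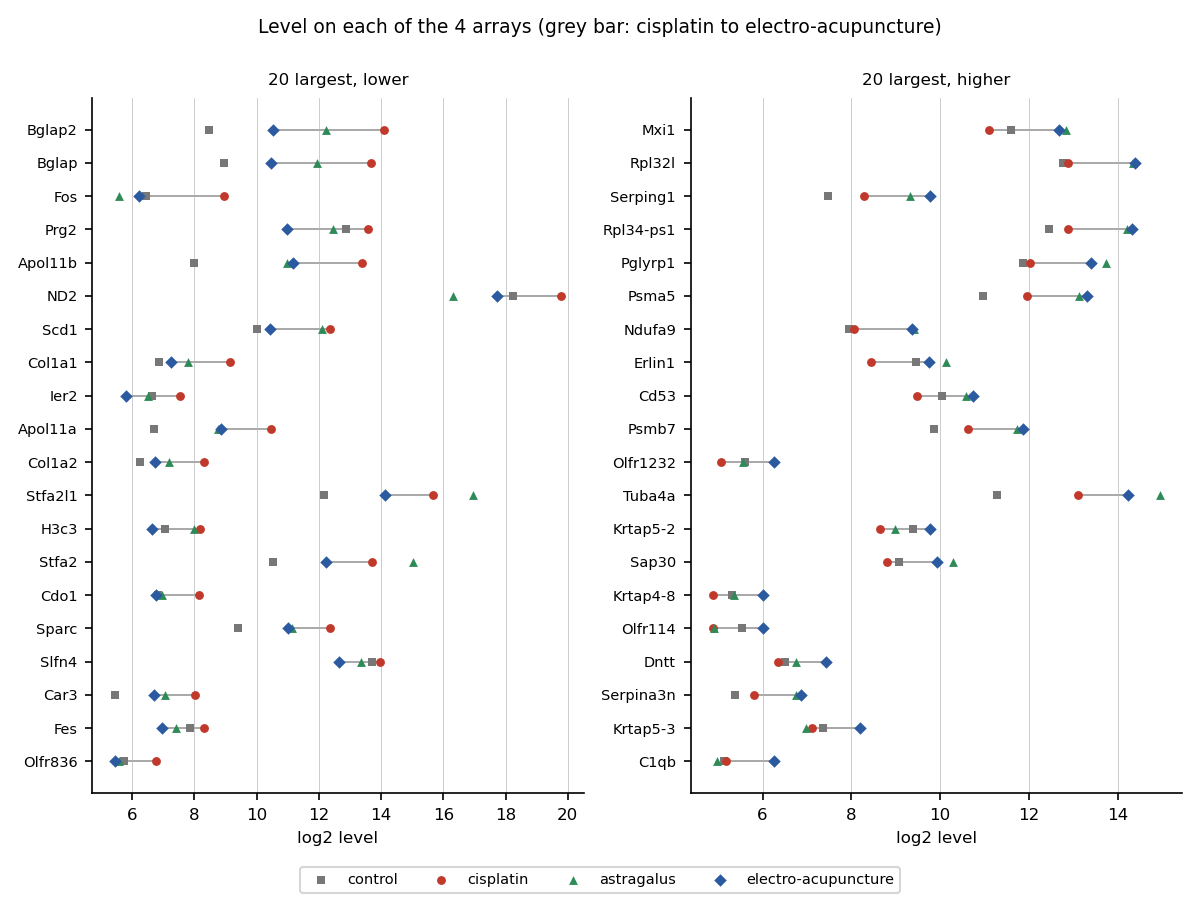
The 20 protein-coding genes with the largest difference in each direction, unnamed gene models passed over, with the log2 level on each of the 4 arrays on the x axis and a grey bar from cisplatin to electro-acupuncture. For the osteocalcin and collagen genes the control value lies lowest and cisplatin highest, while for Psma5, Psmb7 and Serping1 the control value lies lowest and electro-acupuncture highest.

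Of the 70 counted protein-coding genes, 5 were read from a cluster whose ID does not match the gene's position. The numbers in cluster IDs follow the chromosome and, for the most part, the strand. A single break per chromosome was placed where agreement with the strand was best. With it 98.3% of 15736 clusters with a known strand fell in the block of their gene's strand, a fitted share and not a separate check. A place in the other block does not by itself show that a cluster reads the other strand. The clusters used for Mxi1, Erlin1, Arhgap27 and Lilr4b lay in the block of the opposite strand, and that used for Fas carried the number of another chromosome. Mxi1 is a MYC antagonist, but the array's own annotation names the cluster used for it Gm10197. That cluster read 11.61 on control, 11.11 on cisplatin, 12.83 on astragalus and 12.67 on electro-acupuncture, a difference of 1.56. The Mxi1 cluster in the block of the gene's own strand differed by -0.19. Fas is a death receptor and p53 target. Its counted cluster differed by -1.27 and the cluster on its own chromosome by 0.09. For Erlin1 the corresponding values were 1.30 and 0.11, and for Arhgap27 they were -1.18 and -0.11. The counted Arhgap27 cluster carries the name Gm21552 in the array's own annotation. For Lilr4b the table used had no other cluster. Of the remaining 65 counted genes 50 matched on chromosome and strand and 15 had no strand in the tables used.

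Bone matrix genes opened the list of lower genes. Bglap and Bglap2 encode osteocalcin, a small protein that mature osteoblasts release into bone, and Col1a1, Col1a2 and Sparc encode the chains of type I collagen and a collagen-binding matrix protein. RUNX2 drives osteoblast genes through a short motif whose core is ACCACA. The promoter of Bglap in the RefSeq table (GRCm38.p6, chr3:88384417-88384716, minus strand, 250 bases before to 50 after the start) is printed because this gene carries one of the largest differences. Capitals mark ACCACA, which lies 132 bases before the start, and TATAAA, which lies 27 bases before it. Both motifs were searched on both strands and do not overlap.

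Bglap promoter: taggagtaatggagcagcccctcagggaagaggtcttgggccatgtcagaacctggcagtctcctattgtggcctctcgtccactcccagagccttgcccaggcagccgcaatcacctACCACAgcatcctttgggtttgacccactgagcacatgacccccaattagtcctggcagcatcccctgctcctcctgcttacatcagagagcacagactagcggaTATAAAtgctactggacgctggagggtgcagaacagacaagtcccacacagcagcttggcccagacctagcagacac

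ACCACA occurs in 16.8% of the 32851 promoter windows and TATAAA in 13.6%. Of the bone list's genes above the floor, 15 had a window. Of these, 5 held ACCACA and 6 held TATAAA in at least 1 window. These counts are by gene and the shares over all windows are by window, so they are not directly comparable. A match is a description of the letters and not a binding site. Bglap2, Col1a1 and Prg2 are not in the window table.

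Bglap2 read 8.47 on the control, 14.09 on the cisplatin, 12.23 on the astragalus and 10.53 on the electro-acupuncture array, and was 11.8-fold lower on electro-acupuncture than on cisplatin. Bglap read 8.96, 13.68, 11.95 and 10.45 in the same order of arrays and was 9.38-fold lower. The pair are near-identical, and how the signal divides between them is uncertain. The cisplatin array is the highest of the 4 for both, and the electro-acupuncture array stands between control and astragalus.

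Col1a1 read 6.87 on control, 9.15 on cisplatin, 7.79 on astragalus and 7.25 on electro-acupuncture and was 3.73-fold lower. Its partner chain Col1a2 read 6.26, 8.32, 7.19 and 6.74 and was 2.99-fold lower. Sparc read 9.40, 12.35, 11.13 and 11 and was 2.55-fold lower. In all 5 matrix genes the arrays kept the order control, electro-acupuncture, astragalus, cisplatin from low to high.

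The rest of the bone list did not share this size. Of its 22 genes above the floor, out of 39 listed, 13 were lower and 9 higher, with a median of -0.10 against 0.02 over all genes. The 14 matrix proteins had a median of -0.39, with 10 lower, 4 higher and 5 past 2-fold. Enzymes of mineralization and matrix had 4 of 5 higher, with a median of 0.11, and the 3 regulators above the floor ranged from -0.07 to 0.26. Bgn (biglycan, a matrix proteoglycan) read 6.87 on control, 8.20 on cisplatin, 8.40 on astragalus and 8.59 on electro-acupuncture. Mmp13, a collagenase of bone, read 6.04, 7.08, 7.24 and 7.40. These 2 genes were picked after their values were seen, as members that are highest on the electro-acupuncture array. Of osteoclast genes 7 of 9 were lower by small amounts, with a median of -0.06. The largest difference of that list went the other way, in Atp6v0d2, a proton pump subunit, which read 4.92, 5.41, 5.31 and 6.20.

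Among stromal genes of the blood-forming niche the direction was the other way. Of 12 genes above the floor 9 were higher, 2 were lower and 1 was equal, with a median of 0.23 and none past 2-fold. Cxcl12, the chemokine that holds stem cells in the marrow, read 10.91 on control, 12.46 on cisplatin, 12.95 on astragalus and 13.28 on electro-acupuncture, a difference of 0.82. Gas6, a ligand of TAM receptors, read 6.73, 7.24, 7.76 and 7.90. Kitl, the ligand of the stem cell receptor KIT, read 6.41, 7.13, 7.54 and 7.52. Lepr, the leptin receptor that marks niche stroma, read 6.97, 8.13, 8.19 and 8.49. For these 4 genes control was the lowest array and cisplatin the next. Among endothelial genes 10 of 14 were higher, none past 2-fold, and the median was 0.09.

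The fat cell list was split. Scd1, the desaturase that makes oleic acid, read 10 on control, 12.35 on cisplatin, 12.09 on astragalus and 10.44 on electro-acupuncture and was 3.76-fold lower. A second Scd1 cluster differed by -1.09. The 2 clusters lie in the number blocks of different strands, and the strand of the gene is not in the tables used. Which of them lies on the strand of Scd1, and so whether the 3.76-fold value belongs to the gene, is therefore not known here. Car3, a carbonic anhydrase abundant in fat and muscle, read 5.43, 8.03, 7.04 and 6.71 and was 2.50-fold lower.

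Fabp4, which carries fatty acids in the cytosol, read 7.74 on control, 9.76 on cisplatin, 9.04 on astragalus and 8.66 on electro-acupuncture and was 2.14-fold lower. All 3 genes have cisplatin highest and control lowest. Adipoq, the fat cell hormone adiponectin, went the other way with 6.55, 8.01, 8.11 and 8.63, a difference of 0.62. Over the list 7 of 11 genes were lower and 4 higher, with a median of -0.17. Skeletal muscle genes, which would come from tissue around the bone, had 7 of 20 above the floor, with differences between -0.20 and 0.24.

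Immediate early genes are switched on within minutes of a stimulus without new protein, and include the AP-1 factors. Fos is the leading member and read 6.43 on control, 8.95 on cisplatin, 5.58 on astragalus and 6.23 on electro-acupuncture, 6.59-fold lower on electro-acupuncture than on cisplatin. Ier2, a nuclear protein of the same response, read 6.65, 7.55, 6.49 and 5.81 and was 3.34-fold lower. Cisplatin stood alone as the high array for Fos, well above the other 3 arrays. For Ier2 cisplatin was the highest and electro-acupuncture the lowest array.

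The Fos promoter (GRCm38.p6, chr12:85473640-85473939, plus strand) and that of Dusp1 (chr17:26508423-26508722, minus strand) are printed because both genes are fast-induced and both windows hold TGACGT, the core of the cAMP response element. Capitals mark TGACGT on either strand and, in Fos, TATAAA.

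Fos promoter: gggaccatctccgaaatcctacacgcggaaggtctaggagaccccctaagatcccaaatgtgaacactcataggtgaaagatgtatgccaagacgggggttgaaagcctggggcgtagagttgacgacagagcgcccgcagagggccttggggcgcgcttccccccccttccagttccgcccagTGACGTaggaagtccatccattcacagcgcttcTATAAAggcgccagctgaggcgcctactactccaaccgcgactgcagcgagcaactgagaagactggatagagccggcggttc
Dusp1 promoter: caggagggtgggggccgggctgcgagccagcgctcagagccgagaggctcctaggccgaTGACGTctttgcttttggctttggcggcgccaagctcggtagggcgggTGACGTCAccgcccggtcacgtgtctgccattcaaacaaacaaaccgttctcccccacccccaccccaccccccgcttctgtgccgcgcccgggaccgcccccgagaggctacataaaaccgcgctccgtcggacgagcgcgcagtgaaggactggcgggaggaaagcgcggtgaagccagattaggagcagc

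In Fos the motif starts 66 bases before the start site, and in Dusp1 it starts 191 and 143 bases before, the second overlapping its own reverse complement. TGACGT occurs in 7.51% of all promoter windows. Of the 30 immediate early genes above the floor that have a window, 8 held it in at least 1 window. No factor's binding was measured here.

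Over the immediate early list 30 of 36 genes above the floor were lower, 5 higher and 1 equal, with a median of -0.29. Among all protein-coding genes 45.3% were lower. All 6 AP-1 factors were lower, from -2.72 to -0.28, and so were the 4 immediate early nuclear proteins. Jun, the partner of FOS in AP-1, read 5.0 on control, 6.17 on cisplatin, 5.11 on astragalus and 5.52 on electro-acupuncture. Dusp1, a phosphatase that switches off MAP kinases, read 8.0, 9.09, 8.16 and 8.39. Nfkbia, the inhibitor of NF-kB and itself induced by it, read 7.68, 7.91, 7.76 and 7.09.

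Jun and Dusp1 have cisplatin as the high array, while Nfkbia has electro-acupuncture as the low one. Klf6, a zinc finger factor, and Cebpd, a factor of the acute phase, are members that were higher, with differences of 0.32 and 0.53, named after their values were seen. Egr1 had a mean under the floor, with 5.24 on cisplatin and 4.77 on electro-acupuncture. Among cytokine and NF-kB genes the direction was mixed, with 9 of 16 lower and a median of -0.05.

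In the granulocyte lineages single genes stood apart from their lists. Prg2 encodes major basic protein, the main cargo of eosinophil granules, and read 12.87 on control, 13.58 on cisplatin, 12.45 on astragalus and 10.97 on electro-acupuncture and was 6.11-fold lower. Electro-acupuncture was the lowest of the 4 arrays and control lay nearer cisplatin. The other defining eosinophil genes did not share this size. Epx, eosinophil peroxidase, read 5.53, 5.61, 5.47 and 5.39, close to the floor, and Siglecf, a surface receptor of eosinophils, read 5.65, 5.61, 5.72 and 5.87. The 5 granule protein genes above the floor were all lower, from -2.61 to -0.02, and the 4 receptor and enzyme genes ranged from -0.12 to 0.26.

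Stfa2l1, Stfa2 and Stfa3 encode stefin A inhibitors of cysteine proteases, made by maturing neutrophils. Stfa2l1 read 12.15 on control, 15.67 on cisplatin, 16.96 on astragalus and 14.13 on electro-acupuncture and was 2.91-fold lower. Stfa2 read 10.52, 13.72, 15.01 and 12.23, and Stfa3 read 10.90, 13.51, 14.78 and 12.51. All 3 have astragalus highest and control lowest, and as members of a family of similar copies their signals may overlap.

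Pglyrp1, a bactericidal protein of neutrophil granules, went the other way with 11.87 on control, 12.02 on cisplatin, 13.75 on astragalus and 13.40 on electro-acupuncture, 2.60-fold higher. Over the 26 genes of secondary and tertiary granules and maturation the median was 0.00, with 11 higher, 9 lower and 6 equal. Among all 11226 protein-coding genes 288 were equal. With the loess trend removed the median of these granule genes was -0.10. Primary granule genes had 7 higher and 7 lower, and those that were higher included the serine protease genes Prtn3 (0.65), Ctsg (0.55) and Elane (0.50). Mpo, myeloperoxidase, read 11.70, 12.80, 13.75 and 13.25. Fcnb, a ficolin of neutrophil granules, differed by -0.81.

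Macrophage genes were mostly higher. Of 36 genes of the monocyte and macrophage list 27 were higher (against 52.2% of protein-coding genes), 7 lower and 2 equal, with a median of 0.17. C1qb, a chain of complement C1q, read 5.13 on control, 5.18 on cisplatin, 4.98 on astragalus and 6.25 on electro-acupuncture. The first 3 of these values lie under the floor, so no fold is given, although C1qb is the 1 gene of the list counted as past 2-fold. C1qc, a second chain, read 5.64, 5.52, 5.57 and 6.31. Mrc1, the mannose receptor of tissue macrophages, read 7.65, 8.27, 8.49 and 9.06.

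Electro-acupuncture was the highest array for C1qb, C1qc and Mrc1. Cd68, a lysosomal protein of macrophages, read 7.86, 8.39, 8.56 and 9.08 on control, cisplatin, astragalus and electro-acupuncture. Clec4a1, a C-type lectin, differed by 0.96. The 14 monocyte genes had a smaller median of 0.11, and Itgam, the integrin chain CD11b shared with neutrophils, differed by -0.73. Serping1, the inhibitor of complement C1, belongs to none of these lists and read 7.48, 8.29, 9.32 and 9.77, 2.79-fold higher.

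Of 26 early B cell genes 21 were higher (against 52.2% of protein-coding genes), 1 of them past 2-fold, and the median was 0.17. Dntt, the terminal transferase that adds bases to joins of antigen receptor genes, read 6.51 on control, 6.34 on cisplatin, 6.75 on astragalus and 7.43 on electro-acupuncture and was 2.13-fold higher. Rag2, a subunit of the recombinase, read 5.66, 5.13, 5.53 and 5.93. Vpreb3 of the pre-B receptor complex read 7.79, 6.69, 7.20 and 7.26.

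For Dntt and Rag2 electro-acupuncture was the highest of the 4 arrays, while for Vpreb3 it stayed under the control. Il7r, the receptor for interleukin 7, read 10.81, 8.76, 9.47 and 9.05 on control, cisplatin, astragalus and electro-acupuncture, which leaves electro-acupuncture far below control. All 6 genes of the pre-B receptor group were higher, from 0.05 to 0.57, while Pax5, the B cell identity factor and named after its value was seen, differed by -0.30. Mature B cell genes had 11 of 17 lower and a median of -0.04, and plasma cell genes a median of 0.05.

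Antigen receptor V segments, counted but not named, numbered 214. Of these 190 were higher (against 52.5% of all genes) and 46 were at least 2-fold higher (against 1.33%). A single segment was past 2-fold on the lower side, and the median was 0.50. The heavy chain had 86 of 95 higher and a median of 0.65, the kappa chain 57 of 62 and 0.57, and the T cell receptors 47 of 57 and 0.38. The cisplatin value was the lowest of the 4 arrays in 123 of the 214 segments. Genes of T and NK cells had a median of 0.01, with 8 of 15 higher. V segments resemble each other, so their clusters may share signal.

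The proteasome, the barrel that breaks down tagged proteins, was the protein-coding list with the highest median. Of its 34 genes above the floor 30 were higher and 4 lower, with a median of 0.50 against 0.02 over all protein-coding genes and 2 past 2-fold. All 7 genes of the alpha ring were higher (median 0.84), and so were all 6 of the constitutive beta ring (median 0.61). The 6 ATPases of the cap had a median of 0.42 and its 11 non-ATPase subunits 0.35. The 3 immunoproteasome subunits ranged from -0.04 to 0.13.

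Psma5, of the alpha ring, read 10.97 on control, 11.97 on cisplatin, 13.14 on astragalus and 13.32 on electro-acupuncture and was 2.55-fold higher. Psmb7, which carries the trypsin-like activity, read 9.86, 10.64, 11.73 and 11.87 and was 2.35-fold higher. Psma2 read 10.06, 10.28, 11.56 and 11.25. In these 3 genes control was lowest, cisplatin next, and both other arrays were above them.

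**Figure D3:**
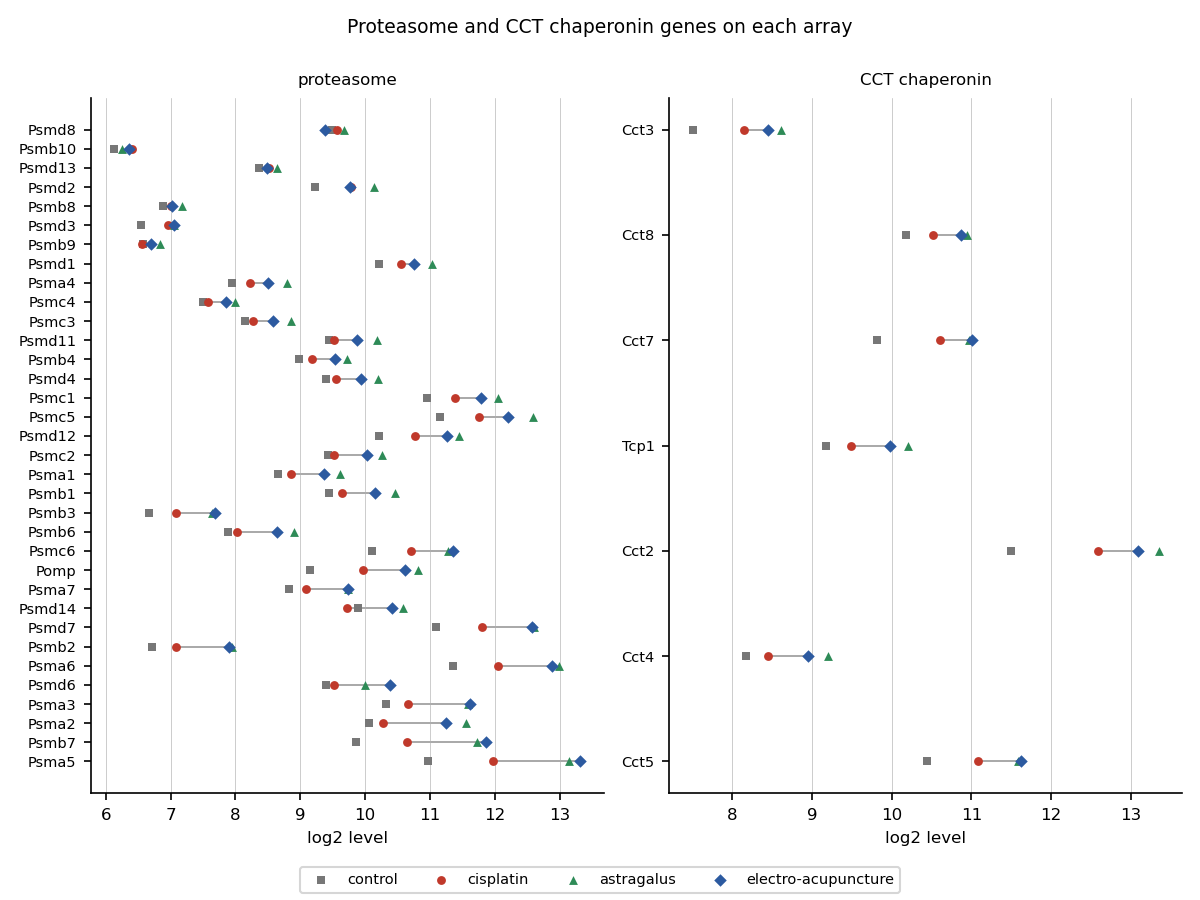
Log2 level on each of the 4 arrays for the 34 proteasome and 7 CCT chaperonin genes above the floor, ordered by the difference between electro-acupuncture and cisplatin, with a grey bar joining those 2 values. Electro-acupuncture lies to the right of cisplatin in 30 proteasome and 7 CCT genes.

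CCT is the ring chaperonin that folds actin and tubulin. All 7 of its genes above the floor were higher, within a narrow range of 0.30 to 0.54 and with a median of 0.49, none of them past 2-fold. Cct5 read 10.44 on control, 11.08 on cisplatin, 11.59 on astragalus and 11.62 on electro-acupuncture. Hspd1, the mitochondrial chaperonin, read 12, 12.78, 13.32 and 13.58. The heat shock and chaperone list, which includes Hspd1, had 10 of 12 genes higher, 1 lower and 1 equal, with a median of 0.09. Hspa5 and Hsph1 differed by 0.36 each. Bag3, a stress-induced cochaperone and the 1 lower member, differed by -0.42. Tuba4a, an alpha tubulin abundant in platelets, read 11.28, 13.10, 14.95 and 14.23 and was 2.19-fold higher, whereas the megakaryocyte and platelet list had a median of -0.01.

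Of 72 respiratory chain genes 66 were higher (against 52.2% of protein-coding genes), 4 lower and 2 equal, and the median was 0.33. The order of the complexes by median was complex IV with 0.55 (10 of 11 higher), ATP synthase with 0.43 (14 of 14), complex I with 0.33 (29 of 34), complex II with 0.24 (4 of 4) and complex III with 0.21 (9 of 9). Neighbouring complexes overlap in their ranges. Ndufa9, a complex I subunit, read 7.94 on control, 8.05 on cisplatin, 9.42 on astragalus and 9.37 on electro-acupuncture and was 2.50-fold higher. Ndufb9, of the same complex, read 10.72, 11.66, 12.52 and 12.66 and was 2.00-fold higher. Atp5b, the catalytic chain of ATP synthase, read 9.98, 10.34, 11.34 and 11.27.

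For Ndufa9 and Atp5b the astragalus and electro-acupuncture values lie close together and above both other arrays. Glycolysis genes did not follow, with 5 of 15 higher and a median of -0.06. ND2, a complex I subunit encoded in mitochondrial DNA and not in the list, read 18.23, 19.79, 16.30 and 17.71 and was 4.23-fold lower. Its cisplatin value lies close to the ceiling of 19.93, where the scale ends. Mitochondrial ribosomal protein genes had 51 of 73 higher and a median of 0.11, and cytosolic ones 28 of 37 and 0.08.

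Rpl32l and Rpl34-ps1, which resemble the ribosomal protein genes Rpl32 and Rpl34, were 2.85-fold and 2.71-fold higher. Of 209 genes whose symbols mark ribosomal protein pseudogenes, Rpl34-ps1 among them, 9 were past 2-fold and all 9 were higher. Among all genes 1.33% were at least 2-fold higher. The largest of the named ones were Rpl10-ps1 and Rpl10-ps6 with the same difference of 1.84. Rpl10-ps1 read 15.11 on control, 16.50 on cisplatin, 18.20 on astragalus and 18.34 on electro-acupuncture. Such copies can share signal with their parent gene, and 43 of the 209 were equal on both arrays.

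**Figure D4:**
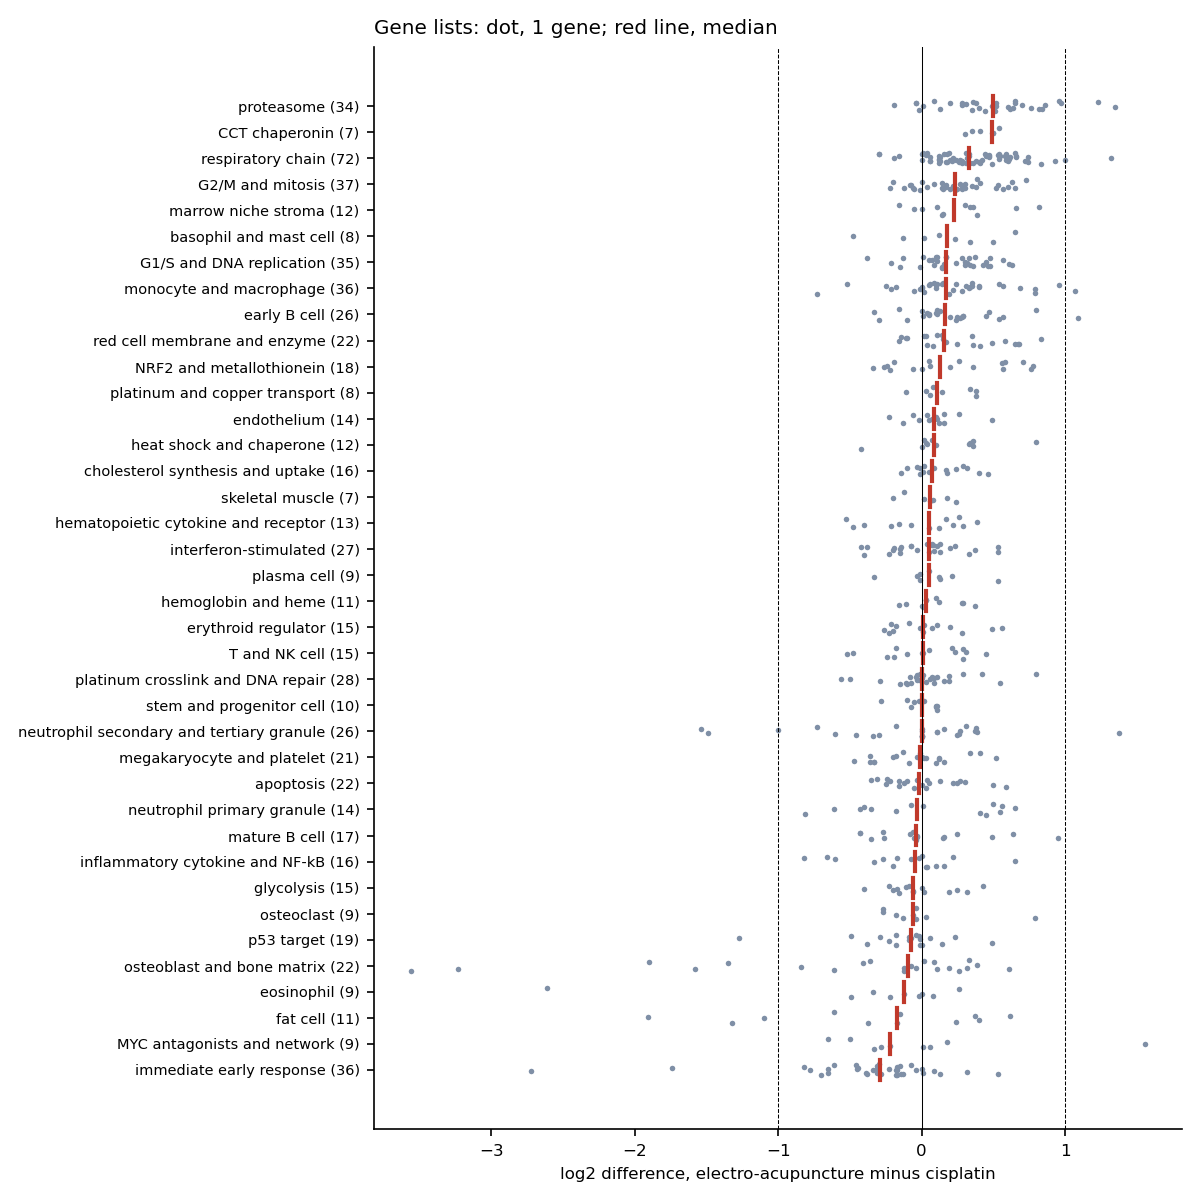
Log2 difference of every gene above the floor in each list of single named genes with at least 5 such genes (x axis; families of RNA genes, receptor segments and gene families defined by symbol are not drawn), lists ordered by their median, red, with the number of genes in brackets; dashed lines mark 2-fold. The medians drawn run from -0.29 for immediate early genes to 0.50 for the proteasome, and the bone, eosinophil and fat lists hold single genes far to the left of their medians.

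Cell cycle genes were higher by small amounts and none was past 2-fold. Of 35 genes of G1/S and DNA replication 30 were higher, with a median of 0.17. Of 37 genes of G2/M and mitosis 28 were higher, with a median of 0.23. Among all protein-coding genes 52.2% were higher. Mcm4, a subunit of the replicative helicase, read 10.10 on control, 10.14 on cisplatin, 11.08 on astragalus and 10.77 on electro-acupuncture. Top2a, the topoisomerase of mitotic chromosomes, read 15.21, 14.43, 15.44 and 15.00, which leaves electro-acupuncture between cisplatin and control. Kif11, a spindle motor, read 12.93, 12.09, 13.39 and 12.74, with the same place. Myc, which encodes a transcription factor and is also an immediate early gene, read 9.67, 10.23, 9.81 and 9.58.

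Genes for the membrane and enzymes of red cells numbered 22, of which 18 were higher (median 0.16), whereas the medians were 0.03 for heme genes and 0.01 for erythroid regulators. Cat, catalase, read 9.44 on control, 9.46 on cisplatin, 10.51 on astragalus and 10.29 on electro-acupuncture. Car1, a carbonic anhydrase of red cells, read 13.37, 12.35, 13.42 and 13.03. Alas2, the first enzyme of heme synthesis in red cells, read 14.64, 14.99, 15.39 and 15.00, and Epor, the erythropoietin receptor, read 8.51, 8.22, 8.51 and 8.01. Kit of stem and progenitor cells differed by -0.07, and that list had a median of 0.00.

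Genes that respond to platinum damage differed little. Of 19 p53 targets 14 were lower, with a median of -0.07, and the only one past 2-fold was the Fas cluster that carries the number of another chromosome. Cdkn1a, the cell cycle inhibitor p21, read 6.64 on control, 8.76 on cisplatin, 8.03 on astragalus and 8.27 on electro-acupuncture, so it stayed well above control. Mdm2, the p53 ligase, differed by -0.07. Crosslink and DNA repair genes had 14 of 28 higher and a median of 0.01. Among them Polh, the polymerase that copies past platinum adducts, read 9.35, 9.05, 9.92 and 9.85, while Xpa, of nucleotide excision repair, read 8.98, 9.04, 8.93 and 8.48.

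Metallothioneins bind zinc, copper and platinum. Mt1 read 7.55 on control, 8.42 on cisplatin, 9.31 on astragalus and 9.18 on electro-acupuncture, and Mt2 read 9.70, 11.28, 11.94 and 11.99. Nfe2l2, the NRF2 regulator of the oxidative stress response, read 8.23, 8.16, 9.02 and 8.94. The NRF2 and metallothionein list had 11 of 18 higher and a median of 0.13, and its members Gsr, Txnrd1 and Srxn1, enzymes of thiol reduction, had differences of -0.26, -0.24 and -0.19 and were named after their values were seen. The reference genes Actb and Gapdh differed by 0.00 each.

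Several other genes past 2-fold belonged to no list. Apol11b and Apol11a are apolipoprotein L genes. Apol11b read 7.99 on control, 13.37 on cisplatin, 10.97 on astragalus and 11.17 on electro-acupuncture and was 4.59-fold lower, and Apol11a read 6.71, 10.47, 8.76 and 8.84 and was 3.10-fold lower. Their 300-base promoter windows differ at only 2 positions. Whether their transcripts are alike enough to share signal was not tested. Cdo1, cysteine dioxygenase, read 6.82, 8.14, 6.94 and 6.76 and was 2.60-fold lower.

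Slfn4, a Schlafen gene of myeloid cells, read 13.70 on control, 13.97 on cisplatin, 13.35 on astragalus and 12.63 on electro-acupuncture and was 2.53-fold lower. Fes, a tyrosine kinase of myeloid cells, was 2.50-fold lower. Cd53, a tetraspanin of leukocytes, read 10.04, 9.49, 10.59 and 10.74 and was 2.38-fold higher. Sap30, a subunit of the SIN3 deacetylase complex, was 2.17-fold higher and Serpina3n, a protease inhibitor of the acute phase, 2.10-fold. Of the 35 higher genes 5 were olfactory receptors and 3 keratin-associated proteins, and 8 of the 35 had a cisplatin value under the floor. Because the floor mean includes the electro-acupuncture value, a gene low on the other arrays can pass through that value. With both arrays required to reach the floor, 27 protein-coding genes were at least 2-fold higher and 35 lower.

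Genes without a protein made up most of the counted genes, and their classes went in different directions. Of 586 genes for small nuclear RNAs, most of which serve in splicing, 261 were at least 2-fold lower and 2 higher, against 2.59% and 1.33% of all genes. In all 489 of the 586 were lower, against 44.5% of all genes, and the median of the 586 was -0.82. Some of these genes read alike on every array, such as Rnu1b1 and Rnu1b2, so they are not all separate measurements. Of 61 ribosomal RNA genes 59 were lower, 55 of them past 2-fold, with a median of -2.54. In the 5S group 51 of 51 were lower, 48 of them past 2-fold, though 50 of these genes share 19 distinct profiles and are thus not separate measurements.

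Rn5s, the 5S reference gene, read 11.56 on control, 11.40 on cisplatin, 8.72 on astragalus and 8.86 on electro-acupuncture. Rnu1a1, of the U1 particle of the spliceosome, read 16.45, 15.30, 13.09 and 12.99. Rmrp, the RNA of a ribosomal RNA processing enzyme, read 15.42, 15.15, 12.38 and 12.61. All 3 split the arrays into control and cisplatin above and astragalus and electro-acupuncture below. Rnu3b1, Rnu3b2 and Rnu3b3 read alike on every array, 19.50 on cisplatin and 16.55 on electro-acupuncture.

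**Figure D5:**
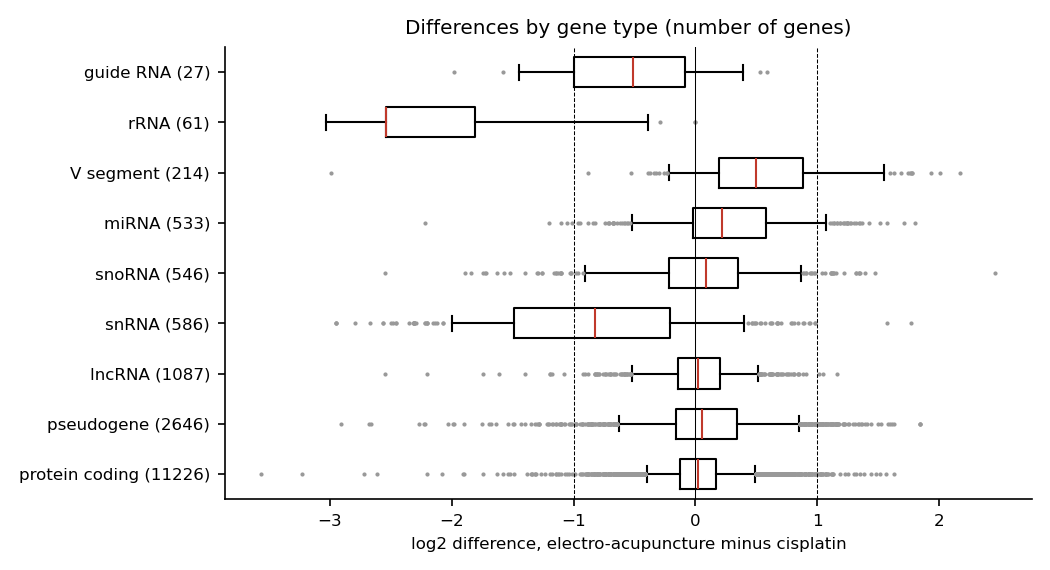
Log2 difference by gene type (number of genes in brackets): box, quartiles; red line, median; whiskers, 5th to 95th percentile; dots, genes beyond; dashed lines, 2-fold. The boxes of ribosomal and small nuclear RNA lie left of 0, those of V segments right of it, and protein-coding genes are centred at 0.02.

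MicroRNA genes leaned the other way, with 41 of 533 at least 2-fold higher, 5 lower (against 1.33% and 2.59% of all genes) and a median of 0.22. The array reads RNA from the gene and the files do not say whether it is the precursor or the mature form. The largest differences on the higher side were Mir669b (1.80), Mir467e (1.71) and Mir297c (1.57), members of the Mir297, Mir466, Mir467 and Mir669 family. Mature sequences were taken from the RefSeq table with a single chromosome left out, and 27 of the 46 counted microRNA genes had them. Those shown are 2 family members (Mir467h and Mir669n) and, of these 27, the genes with the largest difference in each direction (Mir7230 and Mir8115). The seed, bases 2 to 8, is in capitals.

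mmu-miR-467h: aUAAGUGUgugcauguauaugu
mmu-miR-669n: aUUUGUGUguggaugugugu
mmu-miR-7230-5p: aGACUGCUguuucucugaguggc
mmu-miR-7230-3p: uUGAGUUGagacugucaguaggu
mmu-miR-8115: cCGCAAUAgcaacaagggcucu

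The 43 mature sequences of the 27 genes carry 43 distinct seeds, so none of these shares a seed with another. Of the 19 family genes past 2-fold, only Mir467h and Mir669n are among the 27. Seeds of the other counted microRNA genes were not compared. Mir467h read 15.56 on control, 14.66 on cisplatin, 14.02 on astragalus and 16.03 on electro-acupuncture. Mir669n read 13.84, 13.39, 12.86 and 14.53. In both, electro-acupuncture was the highest array and astragalus the lowest.

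Mir7230 read 8.34 on control, 8.03 on cisplatin, 8.33 on astragalus and 9.54 on electro-acupuncture, and Mir8115 read 9.84, 9.70, 8.85 and 7.48. Of the 71 family genes above the floor 65 were higher (against 52.5% of all genes), 1 lower and 5 equal, with 19 past 2-fold and a median of 0.89. These 71 have 50 distinct profiles and are thus not all separate measurements. By RefSeq, 62 of them lie inside the span of Sfmbt2, a polycomb gene with an imprinted microRNA cluster in an intron. Those 62 had a median of 0.93 and 17 past 2-fold, and the 9 elsewhere had 0.58 and 2. No cluster of Sfmbt2 alone reached the floor.

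Small nucleolar RNAs, which guide the modification of ribosomal RNA, went both ways, with 19 of 546 higher and 25 lower past 2-fold, against 1.33% and 2.59% of all genes. Snord72 read 8.15 on control, 7.05 on cisplatin, 9.48 on astragalus and 9.51 on electro-acupuncture, a difference of 2.46. Snord89 read 9.61, 10.75, 8.45 and 8.20, a difference of -2.55. Of 1087 long non-coding RNAs 3 were higher and 9 lower past 2-fold, against 1.33% and 2.59% of all genes. The all-gene share on the lower side includes 261 small nuclear and 55 ribosomal RNA genes. Among protein-coding genes 0.312% were past 2-fold in each direction. Neat1, the scaffold RNA of paraspeckles, read 11.01, 11.53, 10.94 and 10.72.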

How the data were processed

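The deposited values are log2 signals, 1 per transcript cluster and array, made with Affymetrix Expression Console per the submitters' processing notes; no version, summary method or genome build is named in the sources used here. They run from 2.70 to a ceiling of 19.93, which 33 genes reached on both arrays and where no difference can be read. Of 65956 clusters, 31258 carried 1 symbol (1152 updated through the RefSeq GRCm38.p6 table), 1492 carried several and were not used, and 33206 are unnamed here. For a gene with several clusters the one with the highest mean over the 4 arrays was used. The difference is electro-acupuncture minus cisplatin, computed from the log2 values as deposited with pandas 2.3.3 and numpy 2.4.6, and counted by size alone. The calling step was tested on simulated data. The loess alternative used statsmodels 0.14.6 with a span of 0.3.

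Named genes are the 20 largest protein-coding differences in each direction, up to 6 per list, the 4 largest in each direction per non-coding type, the Bglap, Rnu3b and Mir297, Mir466, Mir467 and Mir669 families, and a fixed set (Actb, Gapdh, Mpo, Mdm2 and others). Unnamed models and antigen receptor segments were only counted. The members, lists and rule were chosen with earlier results of these data known. The number of arrays limits the precision.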

Additional observations from a re-analysis of the deposited data

How the results depend on the processing

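With 1 pooled array per group there is no replicate spread, and no replicate could be left out. No paired analysis was possible because each group has 1 array. At a 1.5-fold threshold 1038 genes were higher and 907 lower, of which 336 and 187 were protein-coding. Under the other alternatives (no filter, a floor at the 75th percentile, both arrays above the floor, quantile normalization, array medians subtracted, loess trend removed, mean of a gene's clusters) each count of genes past 2-fold stayed within 1.5 times that reported, but single calls were lost. Of 111 named genes past 2-fold, 13 fell under it with the loess trend removed, 9 with array medians subtracted, 6 with the mean of clusters and 4 with quantile normalization. The protein-coding counts ranged from 26 to 43 higher and from 30 to 39 lower. The median over all genes moved from 0.02 to -0.03 with array medians subtracted, and 29 of 38 list medians then kept their sign, against 32 with the loess trend removed. The proteasome median stayed between 0.41 and 0.56 and the immediate early median between -0.35 and -0.18. The bone list's median was -1.35 at the 75th percentile, where fewer genes enter. Leaving out clusters at odds with the gene's chromosome or strand, an alternative chosen after seeing the data, turned Fas to 0.09 and Mxi1 to -0.19 and left 33 higher and 32 lower protein-coding genes, while 38 of 38 list medians kept their sign.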

Other observations

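Some lists outside the comparison's main groups held single genes of note, given as values without an explanation. H3c3, a histone H3 gene, read 7.05 on control, 8.17 on cisplatin, 7.99 on astragalus and 6.65 on electro-acupuncture, while H2bc12, a histone H2B gene, read 9.40, 8.87, 10.35 and 9.85. Replication-dependent histones as a list had 16 of 28 higher and a median of 0.03. Basophil and mast cell genes had 6 of 8 higher with a median of 0.18, among them Cpa3, a mast cell carboxypeptidase, which read 6.33, 6.08, 6.96 and 6.73.

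Of 1078 listed olfactory receptor genes 154 were above the floor, of which 107 were higher (median 0.18). Of 49 listed keratin-associated protein genes 20 were above it, of which 16 were higher (median 0.25). A gene low on the other arrays can pass the floor through its electro-acupuncture value. Among the 2811 protein-coding genes with the lowest means, from 5.235 to 5.885, 1643 were higher, with a median of 0.04. The median level was 5.31 on the electro-acupuncture array and 5.26 on the cisplatin array. Most of the olfactory receptor and keratin-associated genes past 2-fold lie near the floor. Olfr1232 read 5.60 on control, 5.06 on cisplatin, 5.56 on astragalus and 6.25 on electro-acupuncture. Krtap5-2 read 9.39, 8.64, 8.99 and 9.77 and is thus not near the floor. Interferon-stimulated genes had 15 of 27 higher and a median of 0.05.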
